A study of Mus musculus with 3 samples.

Results

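Pericyte genes were followed in cells that carried the Meis1-EGFP transgene, sorted from mouse kidneys at E15.5. The genes were Rgs5, Rgs4, Cspg4, Mcam, Abcc9, Kcnj8, Anpep and Des. They were chosen by name, with earlier values of these arrays in view, as mural genes that differ between the pools, so those differences are described here without a test. All probe sets whose platform annotation gives a single symbol among the 8 were taken, which made 17 of 34945 such probe sets. The 3 arrays form a single group of CD-1 mice carrying Tg(Meis1-EGFP)FO156Gsat, at Theiler stage 23 and of unknown sex. Each array came from a pool of about 20 kidneys that had been dissociated in trypsin, sorted for the green protein and amplified in 2 rounds. The labels call the cells nephrogenic interstitium and, in the series title, peripheral blastema. The green protein reports where the transgene is active, which need not match every cell that makes Meis1, and no unsorted kidney or other sort was measured. Whether each pool had its own litters is not in the labels, and the p-values cover the spread between these arrays, which may be technical.

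Pericytes are the mural cells that wrap capillaries, share their basement membrane and steady the vessel wall. In the kidney they arise largely from the Foxd1-positive stroma, the lineage that also gives vascular smooth muscle, mesangium and renin cells. They are recognised by combinations of genes, since no gene of the set is made by pericytes alone. Cspg4 encodes the NG2 proteoglycan of the cell surface, and Mcam encodes CD146, an adhesion molecule shared with endothelium. Abcc9 and Kcnj8 encode the regulatory subunit SUR2 and the pore Kir6.1 of the vascular ATP-sensitive potassium channel. Rgs5 and Rgs4 encode proteins that switch off heterotrimeric G protein signalling. Anpep encodes aminopeptidase N, also abundant in the tubule brush border, and Des encodes desmin, the muscle intermediate filament.

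Shown here are the promoters of the 4 genes above background that were 1.5-fold or more higher in replicate 1 after centring on the array medians. They are the regulatory starting points of the members the results turn on. Each is the 120 bases just before the annotated start, from RefSeq (GRCm38.p6), 5′ to 3′ on the strand of the gene. All 8 genes matched the RefSeq table, with 1 start each. Capitals mark the GC box GGGCGG on either strand. Rgs5 lies at chr1:169655381-169655500 (+ strand), Mcam at chr9:44134538-44134657 (+ strand), Abcc9 at chr6:142702275-142702394 (- strand) and Kcnj8 at chr6:142571615-142571734 (- strand).
Rgs5: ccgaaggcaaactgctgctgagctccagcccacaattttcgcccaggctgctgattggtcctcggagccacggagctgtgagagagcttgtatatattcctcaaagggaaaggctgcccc
Mcam: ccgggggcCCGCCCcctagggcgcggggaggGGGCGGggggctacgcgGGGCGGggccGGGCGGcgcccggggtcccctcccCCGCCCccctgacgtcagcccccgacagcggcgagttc
Abcc9: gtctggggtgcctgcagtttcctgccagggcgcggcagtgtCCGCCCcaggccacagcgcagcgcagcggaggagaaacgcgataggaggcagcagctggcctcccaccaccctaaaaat
Kcnj8: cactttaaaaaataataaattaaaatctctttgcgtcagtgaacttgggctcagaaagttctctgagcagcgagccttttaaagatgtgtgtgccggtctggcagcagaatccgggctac

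Motifs were searched on both strands of the 300-base window from 250 bases before to 50 after each start. GGGCGG, the GC box bound by Sp factors, lay in the windows of Cspg4, Mcam, Abcc9, Anpep and Des and in 35.7% of all 32851 windows. Mcam held 5 such matches, all within the stretch shown. TGACAG, the core bound by Meis proteins, lay in those of Rgs4, Mcam and Des and in 19.2% of all windows. TATAAA lay in that of Rgs4 and in 13.6% of all. Neither GTGGGAA, the core bound by the Notch effector Rbpj (6.38% of all windows), nor the CArG box of serum response factor (1.63%) was found in a member's window. The windows of Rgs5 and Kcnj8 held none of the 5 motifs searched.

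The level of each probe set was set against its array's background, the 95th percentile over 72 odorant, vomeronasal and trace amine receptor genes, which are made in sensory neurons. These levels were signals of 135, 185 and 168 in replicates 1, 2 and 3. All 12 renal stroma markers were above background, against 57.3% of all genes. Foxd1, which marks the stromal progenitors, had signals of 28357, 31760 and 25999. Some markers of other cells were above background too, such as Epcam of the ureteric bud (3148, 2398 and 3004). Of the 8 ureteric bud markers 4 were above it, while Cdh1 (-0.79 log2 units), Ret (-0.34), Wnt9b (-0.13) and Krt8 (-0.25) were not. With no unsorted kidney measured, these levels show that stromal genes were present, and whether the sort enriched them was not tested. The 3' to 5' log2 ratio of the Gapdh control probe sets, which grows as transcripts are shortened, was 5.00, 5.39 and 5.26, and that of Actb 3.04, 3.40 and 3.04.

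Of the 17 pericyte probe sets, 8 were above background, against 48.7% of all probe sets with a single symbol (limma, one-sided, Benjamini-Hochberg adjusted p under 0.05). They belonged to 5 of the 8 genes, Cspg4, Kcnj8, Abcc9, Rgs5 and Mcam, against 57.3% of all genes called by their brightest probe set. With no test, 9 of the 17 lay over the level on all 3 arrays, against 51.6%, the added probe set being of Des. Rgs4, Anpep and Des had no probe set above background. Both shares were close to those of all probe sets and genes.

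**Figure D1:**
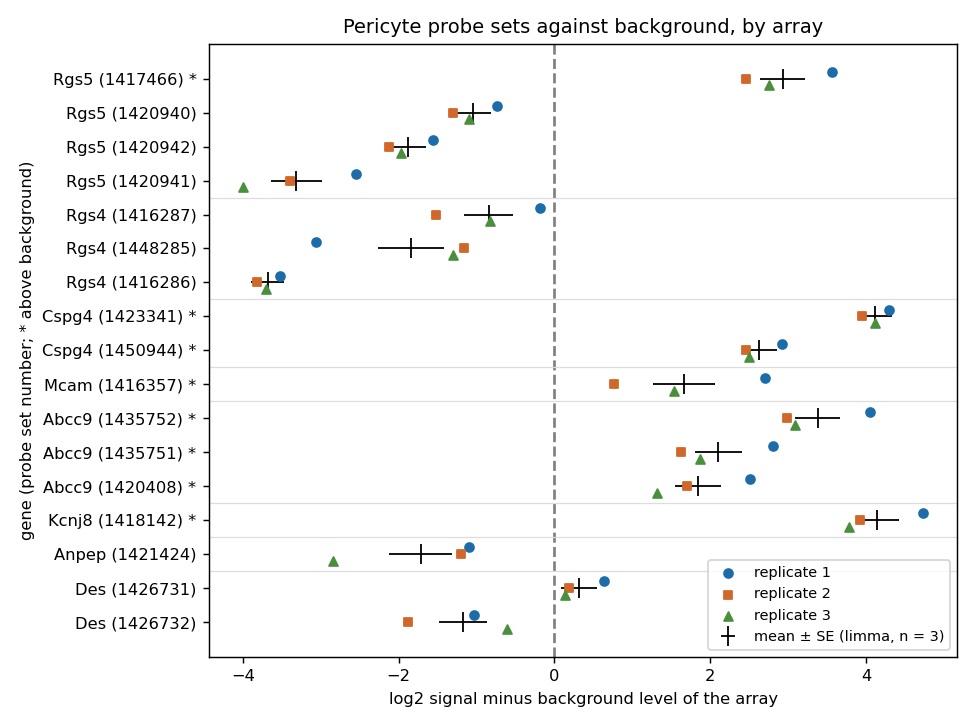
Log2 signal minus the array's background level (horizontal axis) for the 17 probe sets of the 8 genes (vertical axis), with a symbol per array, and the mean with its limma SE (n = 3) in black. An asterisk marks the 8 probe sets above background, and all 3 arrays of each of these lie right of the dashed line at 0.

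The potassium channel genes were clearly present. Kcnj8 (1418142_at, its only probe set), the pore subunit, had signals of 3597, 2801 and 2310.1 in replicates 1, 2 and 3. Its mean distance over background was 4.15 ± 0.28 log2 units (SE, n = 3), or 17.7-fold, with a limma adjusted p of 3.2e-05. Replicate 1 was the highest and replicate 3 the lowest. In pools of sorted cells, fewer cells of a type and less RNA per cell cannot be told apart.

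Abcc9, the regulatory subunit, had 3 probe sets, all above background. The brightest, 1435752_s_at, had signals of 2245, 1469 and 1428 and a distance over background of 3.38 ± 0.29 log2 units (SE, n = 3; limma adjusted p = 9.9e-05). The second, 1435751_at, had signals of 941, 571 and 616, at 2.10 ± 0.30 above. The third, 1420408_a_at, had signals of 768.5, 603 and 419.6, at 1.84 ± 0.30 above. All 3 placed replicate 1 highest. By signal they differed in which of the other arrays was lowest, and after centring on the array medians replicate 3 was lowest in all 3.

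Both channel genes have a partner that can replace them in other tissues. Kcnj11, which encodes the pore Kir6.2, was also above background at 1.56 ± 0.21 log2 units (SE, n = 3; limma adjusted p over all genes 0.000352), and its signals of 376, 488 and 589 ran in the opposite order to those of Kcnj8. Abcc8, which encodes SUR1, was not above background (-0.50 ± 0.21, signals 108, 114 and 119.9). Abcc9 and Kcnj8 are next to each other on chromosome 6 in RefSeq. Their other neighbours, Cmas beside Abcc9 and Ldhb beside Kcnj8, lay 5.83 ± 0.26 and 6.87 ± 0.22 log2 units above background.

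Among the surface markers, Cspg4 was the most even member. Its probe set 1423341_at had signals of 2659, 2858 and 2907 and a distance over background of 4.12 ± 0.21 log2 units (SE, n = 3), or 17.4-fold, with a limma adjusted p of 1.3e-05. The other, 1450944_at, had signals of 1024, 1013 and 954, at 2.63 ± 0.22 above. The highest signal exceeded the lowest by 1.09 times in the first and 1.07 times in the second.

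Mcam was the most uneven of the genes above background. Its only probe set, 1416357_a_at, had signals of 876, 313 and 487 in replicates 1, 2 and 3, so the highest was 2.80 times the lowest. It lay 2.70, 0.76 and 1.53 log2 units above the background of each array, with a mean of 1.66 ± 0.40 (SE, n = 3; limma adjusted p = 0.00881). The array with the least Mcam was thus still over its background level.

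Anpep, the third surface gene, had signals of 63.2, 80.2 and 23.4 on its only probe set, 1421424_a_at, all below background (-1.72 ± 0.40 log2 units, SE, n = 3). Its neighbours on chromosome 7 were read above background by their own probe sets, Mesp2 at 0.62 ± 0.20 and Ap3s2 at 1.93 ± 0.22.

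Of the G protein regulators, Rgs5 was read by 4 probe sets that disagreed. Only 1417466_at was above background, with signals of 1601, 1021 and 1138, at 2.93 ± 0.29 log2 units (SE, n = 3; 7.62-fold; limma adjusted p = 0.000173). The other 3, 1420940_x_at, 1420942_s_at and 1420941_at, had mean signals of 78.3, 43.7 and 17.1 and lay at -1.04 ± 0.23, -1.88 ± 0.23 and -3.31 ± 0.33. These share the accession BF585144, while 1417466_at was designed on NM_009063. With the mean over the 4 probe sets, Rgs5 lay below background (-0.63).

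Rgs4, which RefSeq places next to Rgs5 on chromosome 1, was read by 3 probe sets, all designed on NM_009062 and none above background. The brightest, 1416287_at, had signals of 119, 64.4 and 94.7 (-0.84 ± 0.31 log2 units). The second, 1448285_at, had signals of 16.1, 82.6 and 68.5, the reverse of that order. The third, 1416286_at, had signals of 11.7, 13.1 and 12.9 and hardly moved. The 3 readings of Rgs4 therefore gave no common order of the pools.

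Of 6 other Rgs genes of the same class, Rgs2 and Rgs3 were above background. Rgs2 had signals of 5926, 5279 and 4151 and Rgs3 signals of 2093, 2296 and 2393. Rgs16 (0.18 ± 0.24 log2 units), Rgs1, Rgs8 and Rgs18 were not above it.

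Des lay near the background level. Its brighter probe set, 1426731_at, had signals of 209, 209.9 and 185 and lay over the level on each array, at 0.32 ± 0.23 log2 units (SE, n = 3), which did not pass the test (limma adjusted p = 0.212). It passed with the level set at the 90th percentile (0.67, limma adjusted p = 0.0286), and lay at -0.17 with the 99th. The other, 1426732_at, had signals of 65.9, 50.3 and 110.7, at -1.17 ± 0.31. Vim, the filament gene of mesenchyme, lay 7.80 ± 0.21 above background, while Gfap (0.36 ± 0.23) and Prph (0.08 ± 0.20) were not above it.

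The differences between pools were taken as each array's log2 signal, centred on the array's median, minus the mean of the other 2 arrays. Centring set a frame that matters for every value that follows. The array medians were signals of 143, 162 and 187, so it raised replicate 1 and lowered replicate 3, and the median of all 17025 probe sets above background became 0.31, 0.01 and -0.31 in replicates 1, 2 and 3. Values of members are read against those medians.

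Mcam differed most, at 1.45, -1.05 and -0.40 in replicates 1, 2 and 3, which is 2.73-fold higher in replicate 1 and 2.07-fold lower in replicate 2. Of the 8 probe sets above background 1 reached 2-fold on any array, that of Mcam, against 2.48% of all probe sets above background. The replicate 1 values of Abcc9 were 0.92, 0.95 and 0.90 for its 3 probe sets, 1.89-fold, 1.93-fold and 1.86-fold. That of Rgs5 was 0.86 (1.81-fold) and that of Kcnj8 0.78 (1.72-fold). Without replicate 1 no member probe set above background reached 2-fold between the 2 arrays left. Without replicate 2, 4 did so after median centring: Mcam (1.23), 2 of Abcc9 (1.26 and 1.04) and Kcnj8 (1.03). Each was higher in replicate 1 than in replicate 3. On signals without centring none of these 4 was 2-fold. Mcam had 876 and 487 in replicates 1 and 3, and the others were 1.83, 1.57 and 1.56 times higher in replicate 1. The share of all probe sets was not taken for these 2-array differences, so nothing is read from their count.

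Cspg4 stood apart from these 4 genes. Its replicate 1 values were 0.17 and 0.34, near the median of all probe sets above background, and with arrays centred on the probe sets above background they were -0.19 and -0.02. The name of the set, genes that differ between pools, therefore did not hold for Cspg4 on its signals, and for Rgs4, Anpep and Des it rested on signals not above background. The differences of Anpep (0.83, 1.07 and -1.90) and of the Rgs4 probe set 1448285_at (-1.94, 1.32 and 0.61) were large, but their levels were too dim to give an order of the pools.

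**Figure D2:**
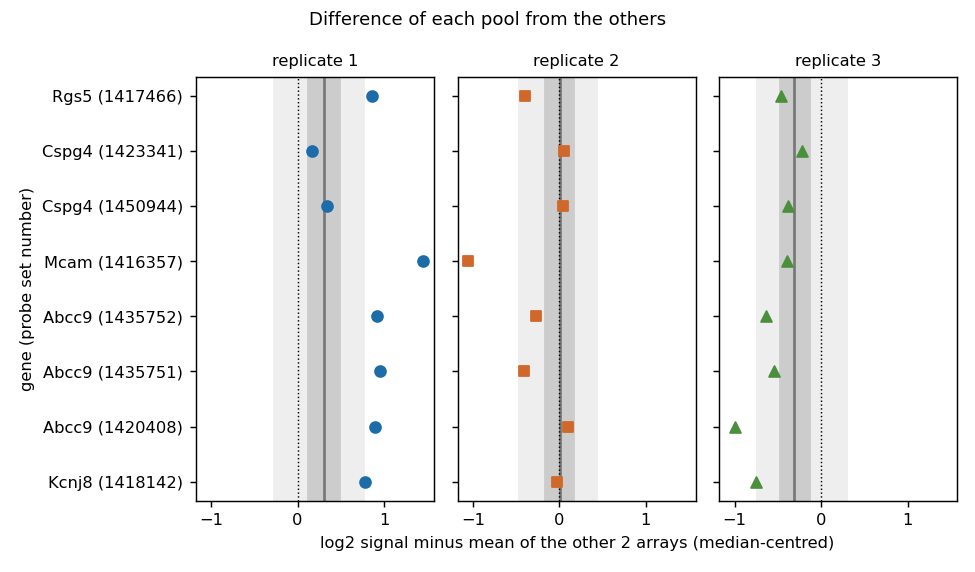
Median-centred log2 signal of each array minus the mean of the other 2 (horizontal axes) for the 8 probe sets above background, in a panel per array. Grey bands hold the central 90% and 50% of all 17025 probe sets above background and the grey line is their median. In replicate 1 the points of Mcam, Abcc9, Rgs5 and Kcnj8 lie beyond the wider band, and those of Cspg4 lie within the narrower.

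The replicate 1 values of the 8 probe sets were all above 0, as were 85% of all probe sets above background. All 8 had their highest centred value in replicate 1, as did 69.9% of all. At 1.5-fold or more, 6 of the 8 were higher in replicate 1, against 15% of all, and 6 reached 1.5-fold on any array, against 26.8%. Since the members were chosen on these differences, nothing is read from these counts.

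The spread over the 3 arrays was given as the SD of the centred log2 signals. It was 0.86 for Mcam, and 0.253% of all probe sets above background had a larger one. It was 0.63, 0.55 and 0.54 for the Abcc9 probe sets, 0.51 for Kcnj8, 0.49 for Rgs5, and 0.25 and 0.13 for those of Cspg4. The median SD was 0.53 for the 8 probe sets and 0.27 for all probe sets above background. By level, 2-fold was reached by 2.52% of the probe sets less than 1 log2 unit above background, by 5.30% of those at 1 to 2, the range that holds Mcam, by 3.05% of those at 2 to 4 and by 0.68% of those more than 4 above.

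**Figure D3:**
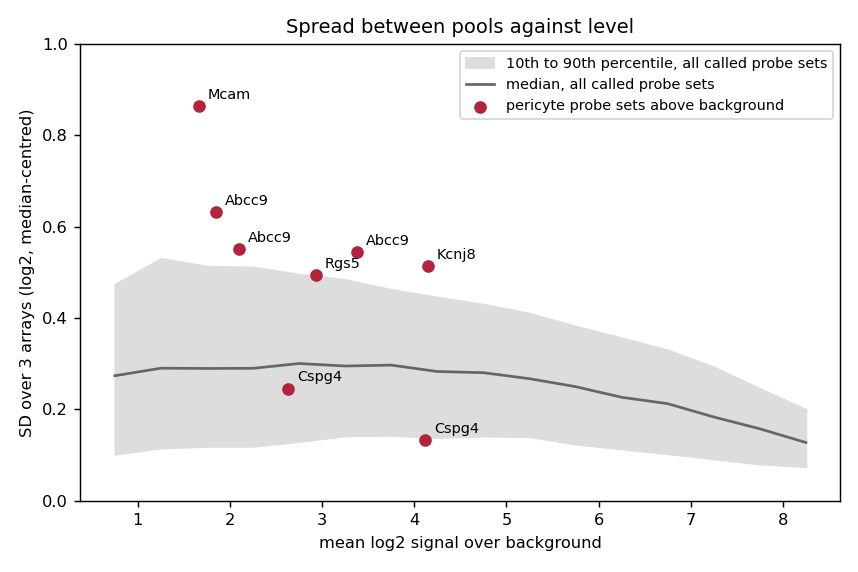
SD over the 3 arrays of the median-centred log2 signal (vertical axis) against the mean log2 signal over background (horizontal axis). Red points are the 8 probe sets above background, the line is the median and the grey band the 10th to 90th percentile of all probe sets above background at that level, so that Mcam, Abcc9 and Kcnj8 stand over the band and both of Cspg4 below the line, with Rgs5 at the upper edge.

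Much of the size depended on the scaling. Centring moves all probe sets of an array by the same amount, so their order in replicate 1 can change only with quantile normalization, where the order of the 5 genes was the same. With arrays centred on the probe sets above background, the replicate 1 value was 1.09 for Mcam, 0.56, 0.59 and 0.54 for Abcc9, 0.49 for Rgs5 and 0.42 for Kcnj8. In that frame 3 of the 8 reached 1.5-fold on any array, against 13.2% of all probe sets above background, and 6 were highest in replicate 1, against 27.2%. Those at 1.5-fold were Mcam and the Abcc9 probe sets 1435751_at and 1420408_a_at. Nothing is read from these counts either, since the members were chosen on these differences and probe sets of 1 gene are not independent. The share of all probe sets above background with a larger SD became 1.29% for Mcam, 20.4% for Rgs5 and 23.2% for Kcnj8. In fold terms these were 2.13-fold for Mcam, 1.41-fold for Rgs5, 1.34-fold for Kcnj8 and 1.47-fold for the brightest probe set of Abcc9.

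**Figure D4:**
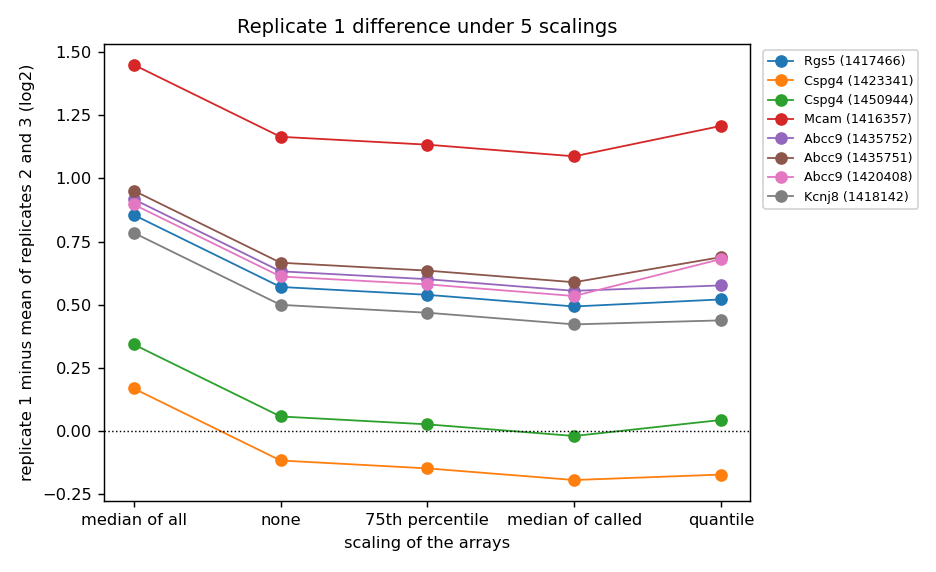
Replicate 1 minus the mean of replicates 2 and 3 (log2, vertical axis) for the 8 probe sets above background under 5 scalings of the arrays (horizontal axis). Mcam stays above 1 in each scaling and Abcc9, Rgs5 and Kcnj8 stay above 0.4, while Cspg4 crosses 0: 1423341_at is above 0 with median centring only, and 1450944_at falls below 0 when arrays are centred on called probe sets.

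Ratios between members within an array do not depend on the centring, and were taken on each gene's brightest probe set. The log2 ratio of Mcam to Cspg4, taken from its own mean over the arrays, was 0.85, -0.73 and -0.12 in replicates 1, 2 and 3, a range of 1.59. That of Kcnj8 to Abcc9 ranged over 0.25; both were chosen for being uneven, and many other genes lay as near to either, as given with the nearest patterns at the end. Ratios of Rgs5, Abcc9 and Kcnj8 to Cspg4 each ranged over 0.75 to 0.78. That of Mcam to Rgs5 ranged over 0.83 and that of Mcam to Kcnj8 over 1.12, so the change of Mcam was unequal to that of the others.

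Other mural genes are given for their levels. Of 36 symbols listed, 33 had a probe set annotated with that symbol alone. Of these, 20 were above background (60.6%, against 57.3% of all genes), among them 15 of 25 that were not members. Pdgfrb, the receptor that recruits pericytes, lay 5.99 ± 0.23 log2 units above background, Notch3 4.31 ± 0.21 and the Notch target Heyl 2.07 ± 0.23 (SE, n = 3). Vtn (-1.14), Higd1b (-2.00), Ndufa4l2 (-2.26), Cox4i2 (-0.23) and Foxs1 (-2.32), which mark mature pericytes in other organs, were not above it. The replicate 1 values of the 15 genes ran from -0.13 to 0.65 with a median of 0.34, beside 0.33 for all genes above background and 0.86 for the 5 member genes, a gap that the choice of uneven genes as members sets in advance. Pdgfrb followed another order, at 0.34, 0.41 and -0.75 in replicates 1, 2 and 3.

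**Figure D5:**
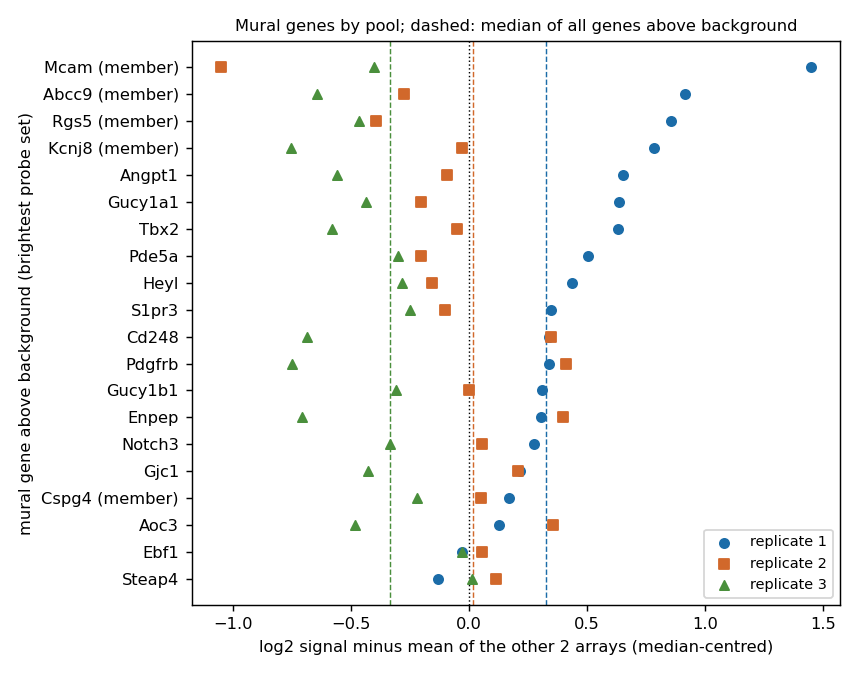
Median-centred log2 signal of each array minus the mean of the other 2 (horizontal axis) for the 20 mural genes above background, ordered by replicate 1. Dashed lines are the medians of all genes above background for each array, at 0.33, 0.02 and -0.33, and the members Mcam, Abcc9, Rgs5 and Kcnj8 hold the 4 highest replicate 1 values; with arrays centred on called probe sets all values move by -0.36, 0.02 and 0.34, so those of Cspg4 in replicates 1 and 3 change sign, as do some values of other genes near 0.

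Smooth muscle genes were above background in 7 of 12 cases (58.3%), close to the 57.3% of all genes. Acta2, the smooth muscle actin, had signals of 7758, 6284 and 6072. The 5 not above background were Tagln (-0.40 log2 units), Myh11 (0.01), Cnn1 (-5.78), Lmod1 (-0.76) and Actg2 (-3.22). The median differences of the smooth muscle genes above background were 0.36, -0.02 and -0.42. Of the renin cell list only Ace had a probe set annotated with that symbol alone, and it was above background (0.78 ± 0.22). In the renal stroma list the largest difference was that of the proteoglycan Lum, at 1.02, -0.53 and -0.48, on signals of 1399, 776 and 914. It was the only gene of the other lists above background that reached 2-fold.

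Markers of endothelium, ureteric bud and podocytes were set beside the members, and a shared gene is named only for endothelium. Endothelial markers, since endothelium makes Mcam, were above background in 7 of 14 cases (50%). This and the list counts that follow stand beside 57.3% of all genes. The summed endothelial signals, without centring, were 4479, 4714 and 4947 in replicates 1, 2 and 3. The median centred differences of the 7 were 0.23, -0.09 and -0.03, beside 0.33, 0.02 and -0.33 for all genes above background. Members of the list disagreed: Cd34 had signals of 615, 429 and 342, and Tek 1002, 1213 and 1327. Pecam1, the first of that list, had signals of 8.67, 113 and 141.1, none above background. Ureteric bud markers (4 of 8 above background, Epcam at 3148, 2398 and 3004) had summed signals of 5756, 4618 and 5565. Podocyte markers (3 of 5, Nphs1 not above background) had sums of 6854, 4749 and 5512. Both sums were highest in replicate 1 and lowest in replicate 2, as were the signals of Mcam and Rgs5, but the podocyte sum was mostly Wt1 (5364, 3336 and 3991). Among the other called genes of these lists, Epcam, Calb1 (657, 393 and 489) and Podxl (626, 567 and 594) had that same order. The rest had other orders, Synpo with 661, 702 and 776, Wnt11 with 672, 577 and 787, and Krt18 with 788, 779 and 656. Of the RNA controls, the 3' to 5' ratio of Gapdh was lowest in replicate 1 and highest in replicate 2, and that of Actb was highest in replicate 2 and level in the other two. The part of these in the differences was not tested.

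For Anpep, 1 of 10 proximal tubule markers was above background, the peptidase Mme, and 1 of 10 of macrophages and leukocytes, Csf1r. These and the other counts here stand beside 57.3% of all genes. Lrp2 (-0.64 ± 0.22) and Ptprc (-1.05 ± 0.32) were not. For Des, none of 14 skeletal and cardiac muscle markers was above background, with summed signals of 685, 781 and 757. For Rgs4, made in neurons, 3 of 8 neural crest and sympathetic markers were above background, Dbh, Elavl4 and Stmn2, and Th was not (-0.51 ± 0.22). None of 7 erythroid markers was. No marker of these lists was listed at 0.

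The genes whose centred values lay nearest to those of a member, by Euclidean distance over the 3 arrays, were found among 10431 genes above background. For Mcam they were Ppp1r8 (0.162), Fkbpl (0.184) and Manbal (0.209), and no gene lay within 0.1. For Abcc9 they were Gas6 (0.000804), Slc35b2 (0.0118) and Atp1b2 (0.0135), and 82 genes lay within 0.1. For Kcnj8 they were Zbtb17 (0.00781), B4galt3 (0.0121) and Actr1a (0.0134), and 148 lay within 0.1. With only 3 arrays, such likeness describes these pools and is met by many genes for the less uneven members.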

How the data were processed

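Members and lists were chosen with earlier results of these data known. The deposited table holds intensity, linear and of 1 colour, for 45101 probe sets on each array. The submitters' processing notes name GCOS, without its role; its version and signal algorithm are not stated there. The 2% trimmed mean of each array was 1500.01, which shows scaling before deposit. No value was 0 or below, and log2 was taken without a pseudocount or filter. Symbols came from the platform annotation: 34945 probe sets carried 1, 932 several and 9160 none, and 64 were controls. Signal over background was fitted per probe set with limma 3.58.1 (lmFit with an intercept, eBayes) in R 4.3.3, one-sided, with Benjamini-Hochberg adjustment over 34945 probe sets, and again over 18193 genes by brightest probe set for the lists, partners and neighbours; it was tested on simulated data. SEs include the spread of the background levels. The number of arrays limits the precision. Named genes are all 8 members, the first 8 other mural genes listed, the first gene of each other list, any list gene above background 2-fold or more uneven, the channel, Rgs and filament partners, chromosomal neighbours, and the 3 nearest patterns of members with an SD of 0.5 or more. Others were chosen after their values were seen.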

Additional observations from a re-analysis of the deposited data

How the results depend on the processing

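The count of member probe sets above background was 8, and it was 5 without probe sets whose IDs carry _x, _s or _a, which leaves out Mcam and Anpep wholly. It stayed at 8 when replicate 1, 2 or 3 was left out, and the count of genes stayed at 5. The count of probe sets 2-fold uneven was 1 of those above background. It was 6 at 1.5-fold and 0 without _x, _s and _a probe sets. As a difference between the 2 arrays left, it was 0 to 4 when replicate 1, 2 or 3 was left out. The 4 came without replicate 2, and none of them was 2-fold on signals without centring. Des lay at -0.17 at the 99th percentile, in both fits, and at -0.23 with the mean over probe sets, where Rgs5 lay at -0.63. Des passed the gene fit with a common background level (0.32, limma adjusted p = 0.0368). Leaving out only _x and _s probe sets was chosen after seeing the data and gave 7 probe sets and 5 genes above background. No paired analysis was possible because the series holds a single group. With 3 arrays and linear signals near background, an order of pools for Rgs4, Anpep and Des is beyond these data.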
